A study of Mus musculus with 20 samples.

Results

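The immunoglobulin heavy and light chain genes were described in bladder tumors, metastases and control bladders of mice. Members were all rows of the array with a single platform symbol naming an immunoglobulin variable, diversity or constant gene, together with Jchain. The rule found 208 genes of 30142 with 1 symbol. They comprised 199 variable genes (113 heavy and 86 kappa), 4 heavy constant genes (Ighm, Ighg1, Ighg2b and Ighe), Jchain and 4 heavy diversity segments. Each member had 1 row, so no choice between rows was needed. The set was selected on the log2 levels of these same arrays, after earlier work on them had shown large differences between single arrays, so its spread over the arrays is given as a description.

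All 20 samples came from FVB/N mice with 1 genotype, in which Rb alleles are floxed and the Rb relative p107 is lost, among other alleles. Control bladders (n = 5) had no virus in their label. Bladder tumors (n = 7) came from bladders inoculated with an adenovirus that carries Cre, a recombinase that removes floxed sequence from the cells reached. Treated bladders (n = 3) had received the same virus and then CM272, which inhibits both G9a, a histone methyltransferase, and DNA methyltransferases, intraperitoneally every day (5 mg/kg, 30 days) together with weekly cisplatin (6 mg/kg). Metastases (n = 4) and 1 metastasis of a mouse given CM272 and cisplatin completed the set; the labels do not name the organ of a metastasis. Separate animals are not stated for the numbered samples, and p-values therefore measure only the spread among these samples, which may be technical. The RNA kit was one made for fixed and embedded (FFPE) tissue. Values are log2 expression levels, so a difference of 1 is 2-fold, and the number of arrays limits the precision.

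Of the 20 arrays, 8 lay near the mean of all arrays in most genes (control bladders 4, 5 and 6, bladder tumors 3, 4 and 5, metastases 3 and 4): their deviations correlated with no other array above 0.14 across genes, against 0.33 to 0.61 in the other 12. Results are therefore also given without the 8. Control bladders 1 and 2 then remain, and these alone read high for Xist, the RNA that silences an X chromosome in females (10.8 and 10.9, against 4.47 to 6.44 in the other 18), so differences from control cannot be told apart from sex in that fit. Both are also among the controls of the fit over all arrays, so differences from control there are not free of sex either. The 8 near-mean arrays read 5.82 to 6.09 for Xist.

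An antibody is built from 2 heavy and 2 light chains. Each B cell joins 1 heavy variable gene, with diversity and joining segments, to a constant region, and 1 light variable gene to a light constant region, so a clone of B or plasma cells transcribes mainly 1 heavy and 1 light variable gene. Ighm encodes the constant region of IgM, the first class made; Ighg1, Ighg2b and Ighe encode those of IgG1, IgG2b and IgE, reached by class switching. Jchain joins IgM pentamers and IgA dimers and is made by antibody-secreting cells. In whole tissue, fewer cells of a type and less RNA per cell cannot be told apart.

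Of the members, only Jchain had an upstream sequence in the RefSeq table used here; sequences of variable genes were not used here. The 250 bases before its start (GRCm38.p6, chr5:88527898-88528147, minus strand) are shown because Jchain is the member that marks antibody secretion whatever the chain used. Capitals mark matches to the E-box CANNTG, which reads alike on both strands.
Jchain upstream: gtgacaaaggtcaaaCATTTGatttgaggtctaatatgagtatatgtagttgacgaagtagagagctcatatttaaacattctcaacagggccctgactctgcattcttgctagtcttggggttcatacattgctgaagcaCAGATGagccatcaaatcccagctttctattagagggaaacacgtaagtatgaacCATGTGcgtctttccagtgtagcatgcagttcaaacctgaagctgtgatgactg
The window held 3 E-boxes, starting at positions -235, -109 and -54 counted from the start. E-boxes were present in 66.2% of 32851 RefSeq promoter windows, which are 50 bases longer. The octamer of immunoglobulin promoters (ATGCAAAT, either strand) did not match the letters of this window and was present in 1.6% of the windows.

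Among the constant genes and Jchain, single arrays stood out more than groups did. Ighm read 5.86, 6.10, 5.97, 6.16 and 6.45 in control bladders 1, 2, 4, 5 and 6. In bladder tumors it ran from 5.25 to 9.54 with a median of 6.20, in treated bladders it was 6.90, 5.90 and 4.94, and in metastases 1 to 4 it was 5.96, 5.19, 6.56 and 6.39. Bladder tumor 1 was the highest of all arrays, and the treated metastasis, at 9.09, came next, ahead of bladder tumor 2 at 7.11. The remaining arrays of every group overlapped.

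Jchain showed the same leading arrays at smaller distances. Its levels were 5.46, 4.95, 6.27, 5.77 and 6.33 in control bladders, from 5.41 to 7.81 with a median of 6.18 in bladder tumors, 6.83, 5.78 and 4.93 in treated bladders, and 6.74, 5.37, 5.79 and 6.25 in metastases. Bladder tumor 1 was highest and the treated metastasis, at 7.18, came next.

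The IgG2b gene stood out in another tumor. Ighg2b read 5.60, 4.81, 6.22, 5.91 and 5.76 in control bladders, from 5.35 to 8.88 with a median of 5.62 in bladder tumors, 5.48, 5.53 and 5.74 in treated bladders and 5.72, 6.38, 5.82 and 5.72 in metastases. Its highest array was bladder tumor 7, where Ighm read 6.15; in bladder tumor 1 Ighg2b read 5.35. The treated metastasis was again next, at 6.74. Ighg1 and Ighe varied less, between 5.30 and 6.37 and between 4.35 and 5.18 over all 20 arrays, and their groups overlapped.

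**Figure D1:**
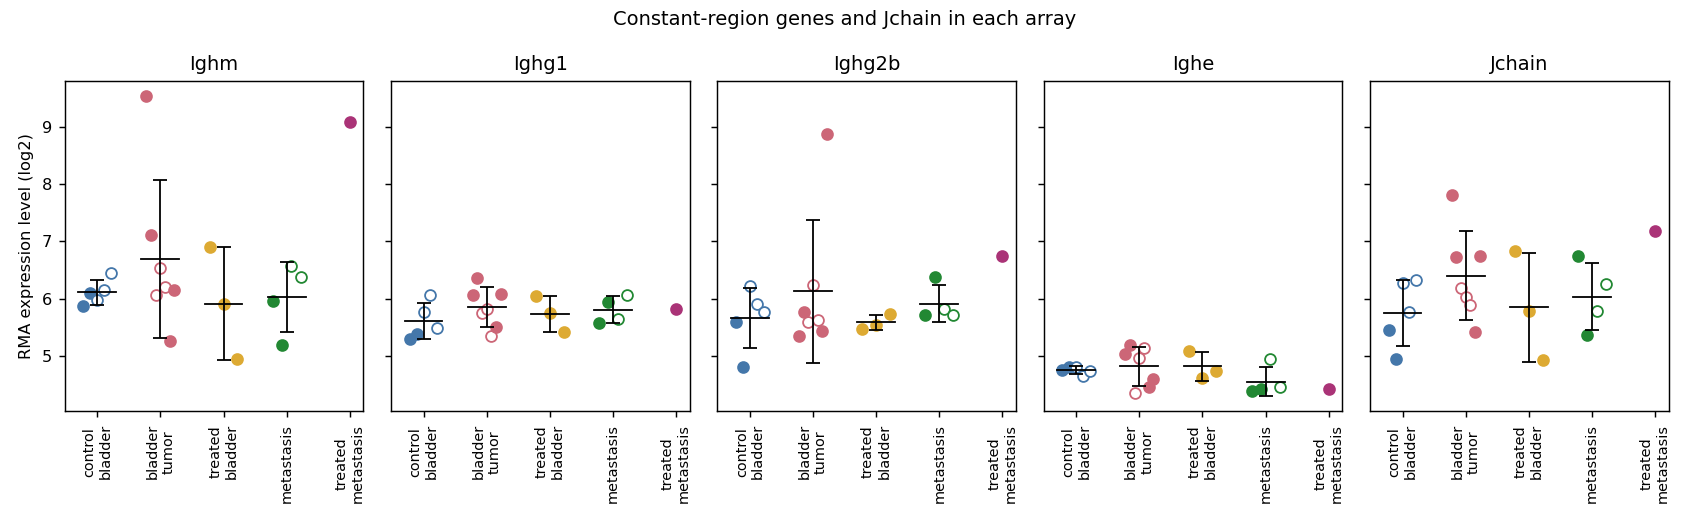
Log2 expression levels of Ighm, Ighg1, Ighg2b, Ighe and Jchain, 1 point per array, by group. Open points are the 8 near-mean arrays, and bars show the mean and SD of groups with over 1 array. Bladder tumor 1 leads in Ighm (9.54) and Jchain (7.81), bladder tumor 7 in Ighg2b (8.88), and the treated metastasis comes next in each.

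The genes whose arrays moved most like Jchain were named by Pearson correlation over the 20 arrays, which share their normalization. Among members Ighm was closest (r = 0.81), followed by Ighv1-43 (0.72), Igkv4-91 (0.71), Igkv17-127 (0.70) and Ighv3-3 (0.64). Without the arrays farthest from the median of Jchain, bladder tumor 1 and treated bladder 3, Ighm was at 0.67, below Ighv1-43 at 0.70, and Igkv4-91 was at 0.52. Outside the members the closest were Fkbp1a-ps3 (0.74), Defb50 (0.71), the chemokine gene Ccl12 (0.70), Olfr722 (0.69) and Nudt5 (0.68). Without the same arrays these were at 0.57, 0.55, 0.69, 0.61 and 0.63, so Ccl12 then lay above Ighm.

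Variable genes spread more over the arrays than most genes did. The difference between highest and lowest array exceeded 2 in 68 of 199 variable genes (34.2%), against 8.93% of all genes and 3 of the 114 variable segments of T cell receptors (2.63%), which are built from like gene segments but made by T cells. Kappa genes spread more often than heavy genes, with 46.5% against 24.8%. Because the genes were put forward for such differences, these shares are descriptions. The largest SD of all 30142 genes belonged to a member, Igkv4-91 (3.24). Igkv4-63, Igkv4-57-1, Ighv1-2 and Igkv4-57 ranked 22, 27, 28 and 50 in SD. The annotation lists 10 variable genes as pseudogenes, Ighv1-2 among them, and 3 of these 10 (30.0%) spread by more than 2, near the 34.4% of the 189 others.

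Variable genes with a high mean were not always those that varied. Ighv2-5 had the highest mean (10.39) and ran from 9.75 to 11.55, and Ighv10-1 ran from 8.67 to 11.03. Ighv5-12-4 ran from 7.14 to 8.46. All groups overlapped in these 3 genes. A level depends on the probes of its row, so such means do not rank the genes by RNA amount.

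Bladder tumor 1 carried 1 heavy and 1 kappa gene far above every other array of the 4 replicated groups. Igkv4-91 read 3.41, 3.79, 5.66, 6.11 and 5.11 in control bladders, from 4.32 to 16.16 with a median of 6.32 in bladder tumors, 3.80, 3.91 and 3.43 in treated bladders and 4.49, 4.44, 5.40 and 5.65 in metastases. The highest value, in bladder tumor 1, exceeds 16, the log2 limit of a 16-bit scanner, as values of 284 rows of the table do. Bladder tumor 2 came next among tumors at 8.36. Ighv12-3 ran from 8.37 to 13.47 with a median of 9.43 in bladder tumors, and from 8.83 to 9.42 in control bladders, 8.50 to 8.96 in treated bladders and 7.87 to 9.01 in metastases. Its highest array was also bladder tumor 1, ahead of bladder tumor 4 at 11.40. Ighv12-3 with an Igkv4 light chain is a pair known from mouse B-1 cells whose IgM binds phosphatidylcholine. Ighm and Jchain were also highest in this array.

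In bladder tumor 7 another heavy gene, listed as a pseudogene, and another kappa gene led. Ighv1-2 read 12.45 there, against 5.69 to 9.46 in the other 6 tumors, 6.58 to 9.38 in control bladders, 7.08 to 8.15 in treated bladders and 6.30 to 9.55 in metastases. Igkv4-63 read 12.21 there, against 5.89 to 7.45 in the other tumors, 4.73 to 7.28 in control bladders, 5.19 to 6.94 in treated bladders and 6.36 to 7.58 in metastases. No other array of these groups overlapped bladder tumor 7 in either gene. Igkv4-57 followed with 10.64, and Ighg2b was highest in the same array. Genes of a variable family are alike in sequence, and no source used here says whether the probes tell Igkv4 genes apart, so which Igkv4 gene led is uncertain.

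Metastasis 2 was highest for Igkv4-57-1 at 10.66, against 7.08, 5.73 and 6.01 in metastases 1, 3 and 4 and 4.04 to 6.40 in all bladder arrays. It was also highest for Igkv4-61 (9.72). Bladder tumor 2 was highest for Igkv5-43 (9.76). Treated bladder 1 was highest for Igkv14-111 (8.54). Treated bladder 2 was highest for a gene of the family Igkv1 (8.34). Each of these genes was named for its highest array, and a gene has only 1. Different leading genes in different arrays therefore follow from the choice.

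**Figure D2:**
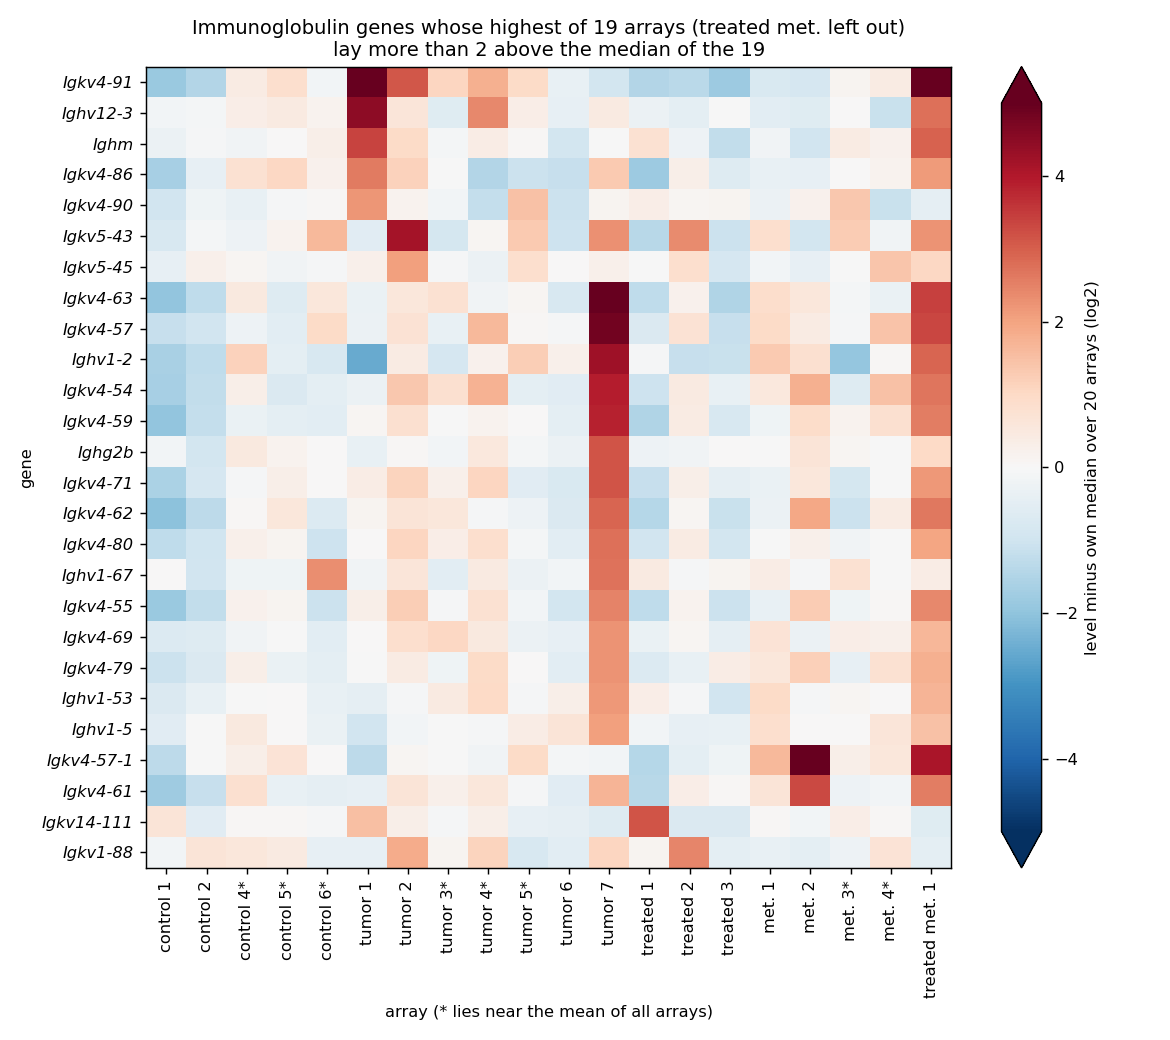
Level minus the gene's median over the 20 arrays (log2; colours end at 5 in both directions) for the 26 members whose highest of the 19 arrays of the replicated groups lay more than 2 above the median of the 19. Blocks of genes are raised in bladder tumor 1, bladder tumor 2, bladder tumor 7 and metastasis 2, and the treated metastasis is raised in 22 of the 26 rows.

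The treated metastasis, a single sample outside every test, was raised in genes that led in different arrays. In 26 members the highest of the 19 other arrays lay more than 2 above their median. The treated metastasis lay more than 1 above that median in 22 of these 26 (84.6%), against 224 of 512 other genes chosen in the same way (43.8%). It exceeded the leading array in 0 of the 26 and came next after it in 20. It read 13.26 for Igkv4-91 and 11.73 for Ighv12-3, the genes of bladder tumor 1. For the leading genes of bladder tumor 7 it read 11.13 (Ighv1-2) and 10.13 (Igkv4-63). Igkv4-57-1, led by metastasis 2, read 9.55. For other genes with the same leading array the treated metastasis was raised in 0 of 49 led by bladder tumor 1, 24 of 111 led by bladder tumor 7 (21.6%) and 18 of 33 led by metastasis 2 (54.5%). Of the 26 members, 15 belong to Igkv4, where 14 were raised; among the 9 variable genes outside Igkv4, 6 were.

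**Figure D3:**
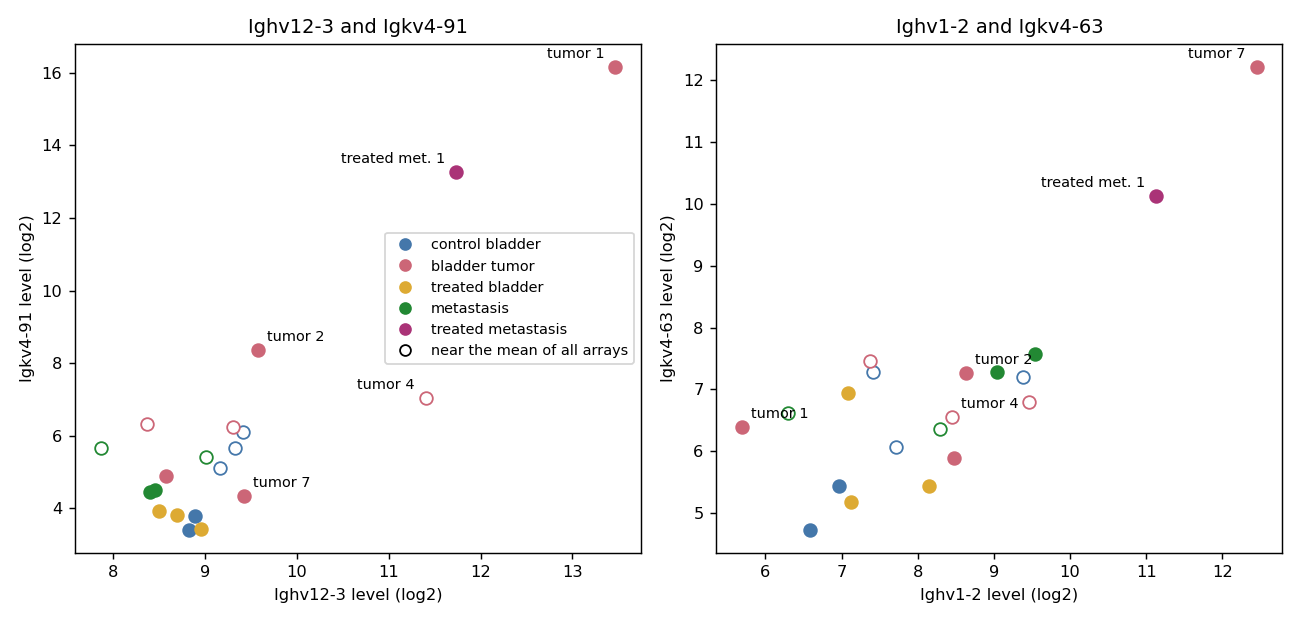
Log2 levels of a heavy gene (horizontal) and a kappa gene (vertical), 1 point per array, coloured by group. Open points are the 8 near-mean arrays. On the left bladder tumor 1 stands at 13.47 for Ighv12-3 and 16.16 for Igkv4-91, on the right bladder tumor 7 at 12.45 for Ighv1-2 and 12.21 for Igkv4-63; the treated metastasis comes next in both.

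How many variable genes were raised also differed between arrays. Counting variable genes more than 1 above their own median over the 20 arrays, bladder tumor 7 had 35 of 199 (17.6%, against 2.51% of all genes), the treated metastasis 28 (14.1%, against 2.11%) and bladder tumor 2 26 (13.1%, against 1.04%). Bladder tumor 1 had 16 (8.04%, against 2.68%), so its signal was large in few genes. Bladder tumor 6 had 0, although 3.62% of all genes were raised in that array. Bladder tumors 3, 4 and 5 had 7, 17 and 11 (all genes 0.537%, 0.727% and 0.571%). Control bladders had 0, 0, 13, 8 and 8 such genes (all genes 0.995%, 0.856%, 0.667%, 0.614% and 0.746%). In treated bladders the counts were 4, 2 and 2 (all genes 0.889%, 0.929% and 0.504%), and in metastases 9, 9, 3 and 8 (all genes 2.96%, 1.17%, 0.6% and 0.594%). The controls at 0 were control bladders 1 and 2; the 3 others are near-mean arrays. T cell receptor segments gave no like count: 0 of 114 were raised in bladder tumor 1, bladder tumor 7 and the treated metastasis, and at most 4, in bladder tumor 3.

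**Figure D4:**
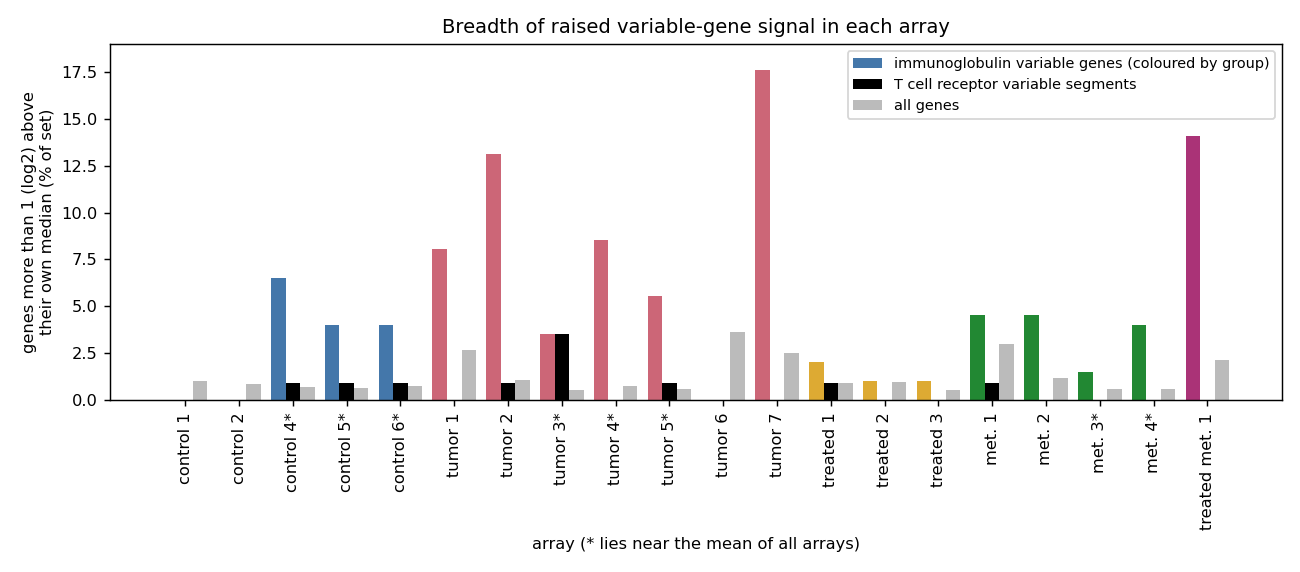
Share of genes more than 1 (log2) above their own median in each array, for immunoglobulin variable genes (coloured by group), T cell receptor variable segments (black) and all genes (grey). Bladder tumor 7 (17.6%), the treated metastasis (14.1%) and bladder tumor 2 (13.1%) have the highest immunoglobulin shares, while bladder tumor 6 and control bladders 1 and 2 have 0.

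The family Igkv4 held part of this signal. Of its 25 genes, 15 were raised by more than 1 in the treated metastasis, 14 in bladder tumor 7 and 7 in metastasis 2. Of the 174 variable genes outside it, 13, 21 and 2 were raised in these arrays. In bladder tumors 1 and 2, 4 and 6 of the 25 Igkv4 genes were raised, and 12 and 20 of the 174 outside it. In control bladder 1, 15 Igkv4 genes lay more than 1 below their median (all genes 0.156%). In treated bladder 1 it was 11 (0.823%) and in control bladder 2 it was 8 (0.229%). Igkv4 genes had a median SD of 0.87. Their median pairwise correlation was 0.42, against 0.11 for all pairs of variable genes, over the same 20 arrays. Ighv1, the family with most members (61), had a median SD of 0.42 and a median correlation of 0.18. Igkv3, with 5 genes, had a higher median correlation than Igkv4, 0.61, with a median SD of 0.56.

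Genes of the cells that make antibodies were read in the same arrays. Of 15 listed B cell genes 14 were measured, and of 14 plasma cell genes 13. The mean of the B cell list ran from 5.06 to 5.20 in control bladders, 5.03 to 5.39 in bladder tumors, 5.00 to 5.21 in treated bladders and 4.97 to 5.12 in metastases, and was 5.14 in the treated metastasis. The plasma cell list ran from 5.25 to 5.39, 5.33 to 5.63, 5.33 to 5.34 and 5.26 to 5.42 in the same order, and was 5.35 in the treated metastasis. In bladder tumor 1, which led in Ighm, Jchain and Igkv4-91, 20 of these 27 genes lay above their own median over the 20 arrays, and the median deviation of the 27 was 0.18. Of these, 4 were at their highest there, namely Pax5 (5.23, median 4.95), Mzb1 (5.23, median 4.58), Irf4 (5.52, median 4.86) and Derl3 (5.04, median 4.51). Ms4a1, Cd79a, Cd22 and Slamf7 came second. Ebf1 was at its lowest of the 20 arrays there (5.54, median 6.03). Txndc5 (5.56, median 5.75) was at place 19 and Xbp1 (6.14, median 6.59) at place 18. Blnk, Ell2, Bank1 and Sdc1 also lay below their medians. Bladder tumor 2 had 22 of 27 above the median, with 4 at their highest. Bladder tumor 6 had only 9 above, yet the most at their highest, 7. Treated bladder 1 had 19 above, with 1 at its highest. Bladder tumor 7 had 11 of 27 above, and the treated metastasis 15, with 0 at their highest in either. These genes were chosen after their values were seen. None of the 27 lay more than 1 above its median in bladder tumor 1, bladder tumor 2, bladder tumor 7 or the treated metastasis, and 2 did in bladder tumor 6. Ms4a1, the CD20 gene of B cells, ran from 4.34 to 5.55 over the 20 arrays and was highest in bladder tumor 2 and next in bladder tumor 1 (5.42). Ebf1, a B cell transcription factor also active in stroma, and Ell2 and Xbp1, which serve antibody secretion but are made by other cells too, were all highest in bladder tumor 6 (7.05, 8.85 and 7.27), the tumor with 0 raised variable genes.

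Markers of other cell types moved with some of these arrays. Bladder tumor 7 had the highest mean of the urothelium list (9.13) and of the smooth muscle list (9.44) among bladder tumors, where the lowest means were 5.15 and 5.49. The macrophage list was at 7.60 in the treated metastasis, inside the 6.49 to 8.42 of the untreated metastases. The liver list (7 of 8 measured) had a mean of 7.40 in metastasis 2, which led in Igkv4-57-1, against 5.13 to 5.41 in the other untreated metastases, 4.70 to 5.46 in bladder arrays and 5.69 in the treated metastasis. Of its genes, Fgb, a fibrinogen chain, read 9.75 in metastasis 2 and 4.65 to 5.81 in all other arrays. Ahsg, a plasma protein of liver, read 10.58 in metastasis 1, 10.39 in metastasis 2 and 9.50 in the treated metastasis, against 5.16 to 6.79 in all others. Their part in the immunoglobulin values was not tested.

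The first comparison asked whether bladder tumors differed from control bladders. Members were mostly higher in tumors, by small amounts, and 0 of 208 passed limma at an adjusted p under 0.05, where 0 of 30142 genes (0%) did. The 4 constant genes and Jchain all had higher means in tumors, with a median difference of 0.47, against 0.01 over all genes. Among variable genes 146 of 199 had a higher mean in tumors, with a median of 0.15. For Igkv4 the median was 0.87, with 22 of 25 higher, and outside it 0.12. At an unadjusted p under 0.05, 19 members were higher (all genes 2.32%) and 2 lower (1.96%). Jchain was at 6.40 ± 0.78 in bladder tumors (SD, n = 7) and 5.75 ± 0.58 in control bladders (n = 5), a difference of 0.65 with a 95% interval from -0.18 to 1.47; the difference was 0.41 without bladder tumor 1. For Ighm the difference was 0.58 (interval -0.53 to 1.70), and 0.11 without bladder tumor 1. For Ighg2b it was 0.47 (-0.50 to 1.43), and 0.0078 without bladder tumor 7. The smallest p belonged to Ighv14-4 (0.71, SE 0.19) and Ighv1-66 (0.65, SE 0.18), both with a limma adjusted p of 0.999. Leaving out single tumors moved the median of the constant genes and Jchain to 0.21 without bladder tumor 1 and 0.21 without bladder tumor 7. Without the 8 near-mean arrays it was 1.03, and that of Igkv4 1.43, with 0 members called.

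Treated bladders were compared with untreated tumors to ask what followed the treatment. The 4 constant genes and Jchain all had lower means in treated bladders, with a median of -0.54, and 135 of 199 variable genes did, with a median of -0.11 (all genes -0.00). 0 of 208 members passed limma's adjusted threshold (all genes 0%). Unadjusted, 4 were higher (all genes 0.425%) and 3 lower (0.063%). Igkv4-91 was the 1 member whose values did not overlap between the groups, at 3.71 ± 0.25 in treated bladders (n = 3) and 7.62 ± 3.99 in bladder tumors (n = 7); 0.0332% of all genes were lower without overlap. Its difference was -3.90, with an interval from -7.37 to -0.43 and a limma adjusted p of 1.0. For Ighm the difference was -0.78 (interval -2.09 to 0.54) and for Jchain -0.55 (-1.52 to 0.41). The smallest p belonged to diversity segments, very short genes: Ighd5-8 was 1.11 higher (SE 0.34) and Ighd5-7, which shares its values with Ighd6-1, 0.81 higher (SE 0.27), both with a limma adjusted p of 1.0. Without treated bladder 3 the difference of Ighm was -0.29 and that of Jchain -0.097. The median of the constant genes and Jchain was -0.09 without bladder tumor 7 and -0.10 without treated bladder 3, and that of variable genes -0.022 without treated bladder 2. Igkv4 had a median of -0.65.

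Treated bladders were also compared with control bladders, and the medians of the members differed little. The median was 0.06 for the constant genes and Jchain, 0.04 for variable genes and 0.04 for Igkv4, and 0 of 208 members passed limma's adjusted threshold (all genes 0%). Unadjusted, 2 were higher (all genes 0.581%) and 0 lower (0.182%), with the smallest p for Ighv11-1 (0.49, SE 0.20) and Ighd5-8 (0.82, SE 0.36). The interval for Ighm ran from -1.59 to 1.20 and that for Jchain from -0.93 to 1.12. Without the 8 near-mean arrays the median was 0.38 for the constant genes and Jchain and 0.66 for Igkv4.

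Metastases were set against bladder tumors to ask whether the sites differed. The 4 constant genes and Jchain all had lower means in metastases (median -0.27), and 138 of 199 variable genes did (median -0.12, all genes -0.03). 0 of 208 members passed limma's adjusted threshold (all genes 0%), with 3 higher (2.51%) and 11 lower (3.49%) unadjusted. Ighv11-2, a heavy gene, differed by -0.65 (SE 0.21) and Igkv4-57-1 by 2.01 (SE 0.68), both with a limma adjusted p of 0.825. The latter rests largely on metastasis 2, without which it was 0.91. With the 8 near-mean arrays and metastasis 1 left out, metastasis 2 was the only metastasis in the fit and Igkv4-57-1 passed, at 5.56 (limma adjusted p = 0.0396).

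Against control bladders, metastases were higher in 3 of the 5 genes that are constant or Jchain (median 0.20) and in 112 of 199 variable genes (median 0.04, all genes -0.01). 0 of 208 members passed limma's adjusted threshold (all genes 0%), with 11 higher (3.13%) and 3 lower (3.99%) unadjusted. For Igkv4 21 of 25 were higher, with a median of 0.60 over all arrays and 1.25 without the 8 near-mean arrays. With these and metastasis 1 left out, Igkv4-57-1 passed here too. The smallest p belonged to Ighv1-9 (0.60, SE 0.21) and Ighv1-66 (0.59, SE 0.21), both with a limma adjusted p of 0.676. Comparisons that share a group share its samples and do not bear on each other independently.

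**Figure D5:**
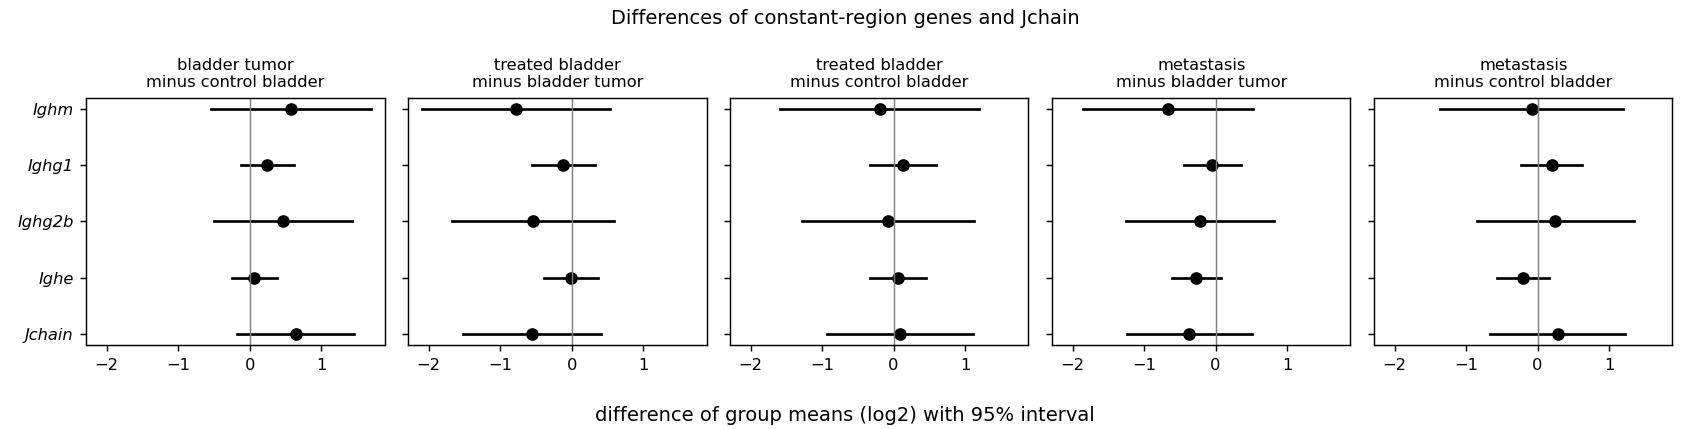
Differences of group means (log2, points) with 95% intervals (lines) for the 4 constant genes and Jchain in the 5 comparisons, from limma. Every interval crosses 0; those of Ighm are the widest.

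The treated metastasis was set beside the 4 untreated metastases without a test. It lay above their range in 68 of 208 members, inside it in 120 and below it in 20, where 14.4% of all genes lay above and 19.1% below. Ighm, Jchain and Ighg2b were above. It exceeded the mean of the untreated metastases by more than 1 in 28 members, against 386 of all 30142 genes. It fell short of that mean by as much in 0 members, and in only 82 of all genes. Of the T cell receptor segments 13 of 114 lay above the range.

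Receptors and partners of antibodies were listed as well. 0 of 12 receptor and transport genes and 0 of 10 genes of class switching and B cell help passed limma's adjusted threshold in any of the 5 comparisons over all arrays. With the 8 near-mean arrays and metastasis 2 left out, Fcgr4 passed it in both comparisons of metastases, where metastasis 1 was then the only metastasis. Fcgr4, an IgG receptor of myeloid cells, ran from 4.25 to 7.41 and was highest in metastasis 1. Pigr, which carries IgA and IgM across epithelia, ran from 4.90 to 7.42 and was highest in bladder tumor 2. Cxcl13, a chemokine that attracts B cells, ran from 6.25 to 12.69 and was highest in metastasis 1, where Ighm read 5.96. Next came bladder tumor 2 (10.95), the treated metastasis (10.50) and bladder tumor 7 (9.41), the 3 arrays with the most raised variable genes. Il6, with Cxcl13 the gene of the widest range in its list, went otherwise. It ran from 4.23 to 5.88 and was highest in bladder tumor 6, which had 0 raised variable genes. A link between these genes and the immunoglobulin values was not tested. Fcgr3 had the smallest p of the receptor list in metastases against control bladders, 1.13 higher with a limma adjusted p of 0.676.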

How the data were processed

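Gene expression was measured on Affymetrix arrays in 20 samples. The authors' deposited log2 values come from RMA (Affymetrix Expression Console), as the submitters' processing notes name it; RMA equalises arrays, so differences in total RNA are removed. Versions: not given in the sources used here. Some values exceed 16.

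Rows with 1 symbol in the platform annotation were kept: 30604 rows, giving 30142 genes. The 25 rows that list several immunoglobulin symbols, which hold Igkc, were not used, so likeness was computed for Jchain alone.

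limma 3.58.1 (R 4.3.3; lmFit, eBayes, Benjamini-Hochberg) fitted 19 arrays of 4 groups over all genes, without covariates, and was checked on simulated data. Named were the constant genes and Jchain, the 5 variable genes with the highest mean and the 5 with the largest SD. Named too were the 2 smallest p per comparison and the genes most like Jchain. Of the B cell, plasma cell, receptor, B cell help and liver lists, members that passed or those with the largest range were named. No gene was named from the lists of B cell precursors, T cells, macrophages, neutrophils, lymph node and spleen stroma, urothelium, smooth muscle and lung. Other genes were chosen after their values were seen, as were the members leading in an array. Members and lists were chosen with earlier results of these data known. Array medians over all rows, with or without a symbol, ran from 5.07 to 5.42. Same-numbered samples deviated together above r = 0.1 in 2 of 17 pairs, so numbers were not taken as pairs. Some engineered loci are not reported here.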

Additional observations from a re-analysis of the deposited data

Results flagged for a closer look

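Of 63 combinations of a named gene and a group, 6 had a single array far from the others of its group by Dixon's test. That test flags about 1 in 20 groups by chance, a rate that cannot be applied here, because the set was put forward for differences between single arrays and 5 of the named genes were picked for the largest SD. The 6 are therefore given as values only. Igkv4-91 read 16.16 in bladder tumor 1, against 8.36 in the next tumor. Igkv4-63 read 12.21 in bladder tumor 7, against 7.45, and Igkv4-57 read 10.64 there, against 7.43. Ighg2b read 8.88 in bladder tumor 7, against 6.24, and 6.38 in metastasis 2, against 5.82. Ighe read 4.94 in metastasis 3, against 4.45.

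Rows that list several immunoglobulin genes entered no comparison, and 3 of these 25 rows exceeded the highest control bladder by more than 2. A row with 3 symbols read 9.95 in metastasis 1 (highest control 7.24) and 9.67 in the treated metastasis. A row with 2 symbols read 9.46 in metastasis 1 (highest control 6.67), and another with 2 symbols read 10.14 in bladder tumor 7 (highest control 7.45).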

How the results depend on the processing

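Over all alternatives with every replicated array kept, 0 members and 0 genes of the B lineage and receptor lists were called in any of the 5 comparisons. These alternatives changed array weights, the prior, the groups in the fit, centring, a filter on dim genes, the row rule or a second quantile normalization. In the main fit 0 of 30142 genes passed in any comparison, so these counts of 0 cannot show how stable a call would be. The value of the constant genes and Jchain (median) moved without the 8 near-mean arrays, to 1.03 in tumors minus control, 0.38 in treated bladders minus control and 0.41 in metastases minus control, and the median of variable genes moved to 0.19 in treated bladders minus control. In that fit the sign of Ighg2b turned in treated bladders minus control (0.38). With array weights Ighe turned to 0.025 in treated bladders minus tumors and Ighg2b to 0.15 in treated bladders minus control. With arrays centred on their medians Ighg1 turned to 0.0017 in metastases minus tumors, and the counts of raised variable genes became 10 in bladder tumor 1, 1 in treated bladder 3 and 14 in metastasis 1. This centring of the counts, and the fits without the near-mean arrays and 1 further array, were chosen after seeing the data. The cause of these changes was not tested.

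Same-numbered samples deviated together above r = 0.1 in 2 of 17 pairs, and r ran from -0.51 to 0.44. With the replicate block 0 members were called in any comparison; the median of the constant genes and Jchain moved to -0.076 in treated bladders minus tumors, and Ighg2b turned to 0.034 in treated bladders minus tumors, 0.051 in treated bladders minus control and 0.25 in metastases minus tumors.

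Leaving out each array in turn, with the other arrays all kept or with the near-mean arrays also out, called 0 to 1 members in metastases minus tumors and in metastases minus control, in both cases Igkv4-57-1 without the near-mean arrays and metastasis 1. The B cell and receptor lists had 0 to 1 called in the same comparisons, in both cases Fcgr4 without the near-mean arrays and metastasis 2. A group left with 1 array is assumed there to vary like the others. The median of the constant genes and Jchain ran from 0.21 to 1.46 in tumors minus control, from -1.08 to -0.085 in treated bladders minus tumors, from -0.11 to 0.42 in treated bladders minus control, from -0.61 to -0.19 in metastases minus tumors and from 0.039 to 0.45 in metastases minus control. That of variable genes ran from 0.077 to 0.43 in tumors minus control, from -0.26 to -0.022 in treated bladders minus tumors, from 0.0024 to 0.24 in treated bladders minus control, from -0.30 to -0.076 in metastases minus tumors and from 0.0022 to 0.22 in metastases minus control. Single genes whose sign turned in at least 1 such fit, none of them called, were Ighe (-0.094 to 0.15 in tumors minus control, -0.14 to 0.12 in treated bladders minus tumors, -0.11 to 0.16 in treated bladders minus control), Ighg1 (-0.43 to 0.046, -0.023 to 0.55 in the last 2 of these, -0.43 to 0.041 in metastases minus tumors), Ighg2b (-1.11 to 0.065, -0.29 to 0.77 and -0.65 to 0.53 in the same 3), Jchain (-0.40 to 1.10 in treated bladders minus control, -1.31 to 0.06 in metastases minus tumors) and Ighm (-0.69 to 0.42 in treated bladders minus control, -0.79 to 0.19 in metastases minus control). The members above the range of the untreated metastases in the treated metastasis numbered 75 to 82 with 1 metastasis left out. Leaving 1 out can only narrow the range, so this count could not fall below 68 and does not measure stability. The number of arrays limits all of these values.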
